A study of Mus musculus with 22 samples.

Results

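The circadian clock genes described here are 10 genes of the molecular clock, namely Clock, Arntl (also called Bmal1), Npas2, Per1, Per2, Cry1, Nr1d1, Nr1d2, Dbp and Tef. They were found by symbol in a TempO-Seq count table, a targeted assay that ligates paired detector oligonucleotides on a transcript and counts them by sequencing. The table held 14 of their probes, 3 each for Dbp and Cry1 and 1 for each other gene, among 30146 probes for 21450 symbols. The genes were chosen by symbol, but the list was selected on earlier results for clock probes in the same counts, so levels and correlations of its members are given as descriptions, with no test.

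The 22 libraries came from whole pancreas of C57Bl/6 mice, taken at birth from dams and from a male and a female pup of each litter. The labels give 4 dams, 4 female pups and 4 male pups for TCDD, an agonist of the aryl hydrocarbon receptor, given to the dams under the skin at 20 ng/kg per day. They give 4 dams, 3 female pups and 3 male pups for corn oil, the control. Dosing of the dams began before mating and lasted until birth, and no dosing of pups is described. The labels give no hour of the day for tissue collection, which bears on every value below, and its part in them was not tested.

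The stage labels did not match the stage genes in 8 of 22 libraries, so libraries were divided by 2 transcripts that are not part of the clock. The 8 adult-type libraries had more counts for Pnlip, the triglyceride lipase of mature acinar cells, than for Afp, a fetal plasma protein. They were those labelled TCDD dams 8 and 11, TCDD female pup 6, TCDD male pups 8, 10 and 11, and control dams 5 and 7. The 14 newborn-type libraries had the reverse. Treatment labels of single libraries could not be checked in this way, and sex labels also disagreed with Y-linked transcripts in some libraries. The adult-type class held 6 TCDD and 2 control labels, whereas the labelled dams were 4 and 4. The newborn-type class held 6 TCDD and 8 control labels. If the classes are dams and pups, the treatment labels cannot all be right. Comparisons of treatment labels below carry that limit. Library totals ran between 11223816 and 34911410 counts, and the deepest, control dam 4, stood apart from the next at 19148777.

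In the mouse clock, CLOCK or its relative NPAS2 pairs with ARNTL and binds E-boxes in DNA, switching on Per, Cry, Nr1d and Dbp genes. PER and CRY proteins then inhibit the pair, and the nuclear receptors NR1D1 and NR1D2 (REV-ERB alpha and beta) repress Arntl. Arntl transcripts therefore peak about opposite in the day to those of Nr1d1, Nr1d2 and Dbp, while Cry1 transcripts peak late. This rhythm is known in adult mouse tissues, pancreas among them, whereas many rodent tissues around birth are known for weak rhythms.

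Promoter sequence is shown for the 3 output genes that varied together in the adult-type libraries, Nr1d1, Nr1d2 and Dbp, and for Cry1, which varied against them. Each line gives the 200 bases directly upstream of the gene's start, 5′ to 3′ on the gene's own strand, from the RefSeq table of GRCm38.p6. Capitals mark an E-box (CACGTG), an E'-box (CACGTT) or a nuclear receptor motif (AGGTCA), read on either strand.

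Nr1d1 (chr11:98775378-98775577, minus strand): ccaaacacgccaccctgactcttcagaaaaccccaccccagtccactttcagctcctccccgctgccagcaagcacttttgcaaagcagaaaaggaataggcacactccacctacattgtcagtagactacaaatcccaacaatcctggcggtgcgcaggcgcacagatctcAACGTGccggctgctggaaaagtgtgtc

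Nr1d2 (chr14:18239107-18239306, minus strand): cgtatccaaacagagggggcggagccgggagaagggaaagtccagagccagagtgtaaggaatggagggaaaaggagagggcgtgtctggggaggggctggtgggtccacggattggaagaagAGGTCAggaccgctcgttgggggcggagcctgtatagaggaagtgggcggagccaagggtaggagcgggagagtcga

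Dbp (chr7:45705047-45705246, plus strand): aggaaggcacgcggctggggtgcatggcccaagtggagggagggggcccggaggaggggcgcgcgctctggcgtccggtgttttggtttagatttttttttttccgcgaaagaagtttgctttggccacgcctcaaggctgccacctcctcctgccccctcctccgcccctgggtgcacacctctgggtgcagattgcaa

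Cry1 (chr10:85185055-85185254, minus strand): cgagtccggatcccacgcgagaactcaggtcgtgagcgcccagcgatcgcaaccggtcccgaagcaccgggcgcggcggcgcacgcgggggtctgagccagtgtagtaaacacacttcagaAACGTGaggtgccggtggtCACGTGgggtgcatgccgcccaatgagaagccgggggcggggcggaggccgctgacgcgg

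The search covered 250 bases upstream of each start on both strands, and 9 of the 10 genes had 14 such windows among 32851 in the table. Positions give a motif's first base, counted from the start. The Cry1 window held an E-box at -60 and an E'-box at -79, and the Nr1d1 window an E'-box at -28. The Nr1d2 window held the receptor motif at -77, whereas no searched motif lay in the Dbp window or in those of Arntl and Npas2. A Per1 window held an E-box at -166, the receptor motif at -137 and a D-box (TTATGCAA) at -24, a Clock window held the receptor motif at -119, and each of the Tef windows had an E-box. Among all windows the E-box was in 6.02%, the E'-box in 3.85%, the receptor motif in 14%, the D-box spelled as above in 0.694% and as TTATGTAA in 0.819%, the RORE, where NR1D proteins bind, in 0.332%, and the cAMP response element (TGACGTCA) in 1.55%. The receptor motif is part of the RORE. A match describes letters in these windows only.

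Of the 10 genes, 7 had a mean of at least 10 counts a library: Clock with 478, Cry1 with 397, Dbp with 215, Nr1d2 with 115, Arntl with 46.0, Nr1d1 with 20.1 and Tef with 15.4. Npas2, Per1 and Per2 averaged 5.68, 5.77 and 2.32 counts. Probes capture different transcripts with different yield, so levels were not compared between genes. Levels are given as CPM, the counts of a gene scaled to a common library total.

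Arntl, the obligate partner of CLOCK and NPAS2, lay between 0.576 and 2.91 CPM in the adult-type libraries (median 2.0) and between 1.35 and 4.54 CPM in the newborn-type ones (median 3.49). The lowest adult-type library, TCDD male pup 10, had 9 Arntl counts, which give a 95% Poisson interval of 0.263 to 1.09 CPM. The lowest newborn-type library was control dam 4, whose depth is given above. The classes overlapped. Clock, the histone acetyltransferase subunit of the pair, was the most even member, at 22.4 to 27.6 CPM in adult-type (median 23.4) and 25.1 to 42.8 CPM in newborn-type libraries (median 31.2). Npas2, which replaces CLOCK in some tissues, had 16 counts in all adult-type libraries together and 109 in the newborn-type ones.

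Nr1d1, which shuts off Arntl, ranged over 14 times within the adult-type libraries, from 0.456 to 6.4 CPM (median 0.964), and over 5.78 times within the newborn-type ones, from 0.302 to 1.75 CPM (median 0.899). Its paralogue Nr1d2 ranged over 11.2 times in adult-type libraries, from 0.698 to 7.85 CPM (median 2.39), and over 2.82 times in newborn-type libraries, from 4.61 to 13.0 CPM (median 9.36). Dbp, a D-box activator read out directly from the clock, spanned 2.66 to 20.8 CPM in the adult-type class (median 4.26) against 12.2 to 21.0 CPM in the newborn-type class (median 16.4). Its highest adult-type library was again TCDD male pup 10, inside the newborn-type range. Without TCDD male pup 10, a setting chosen after seeing the data, the adult-type range was 4.53 times for Nr1d1, below its newborn-type range, 4.39 times for Dbp and still 11.2 times for Nr1d2. The wide range of Nr1d1 thus rested on that library, while Nr1d2 and Dbp ranged more widely in adult-type libraries with and without it.

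Tef, a relative of Dbp, lay at 0.122 to 1.34 CPM (median 0.219) in adult-type and 0.535 to 2.4 CPM (median 0.955) in newborn-type libraries. Cry1, the late repressor, was the only member of the 7 whose classes did not overlap on this scale, at 3.84 to 14.1 CPM (median 5.56) in adult-type and 23.5 to 53.4 CPM (median 33) in newborn-type libraries. The range of Cry1 was 3.68 times in adult-type libraries (3.21 without TCDD male pup 10) and 2.27 times in newborn-type ones. Per1 and Per2, the period genes, had 15 and 13 counts in all adult-type libraries and 112 and 38 in the newborn-type ones. They were at 0 in 2 and 4 of the 8 adult-type libraries, where 3 counts correspond to 0.157 to 0.213 CPM. Intervals and such floors cover counting error only, since reads are not independent molecules.

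**Figure D1:**
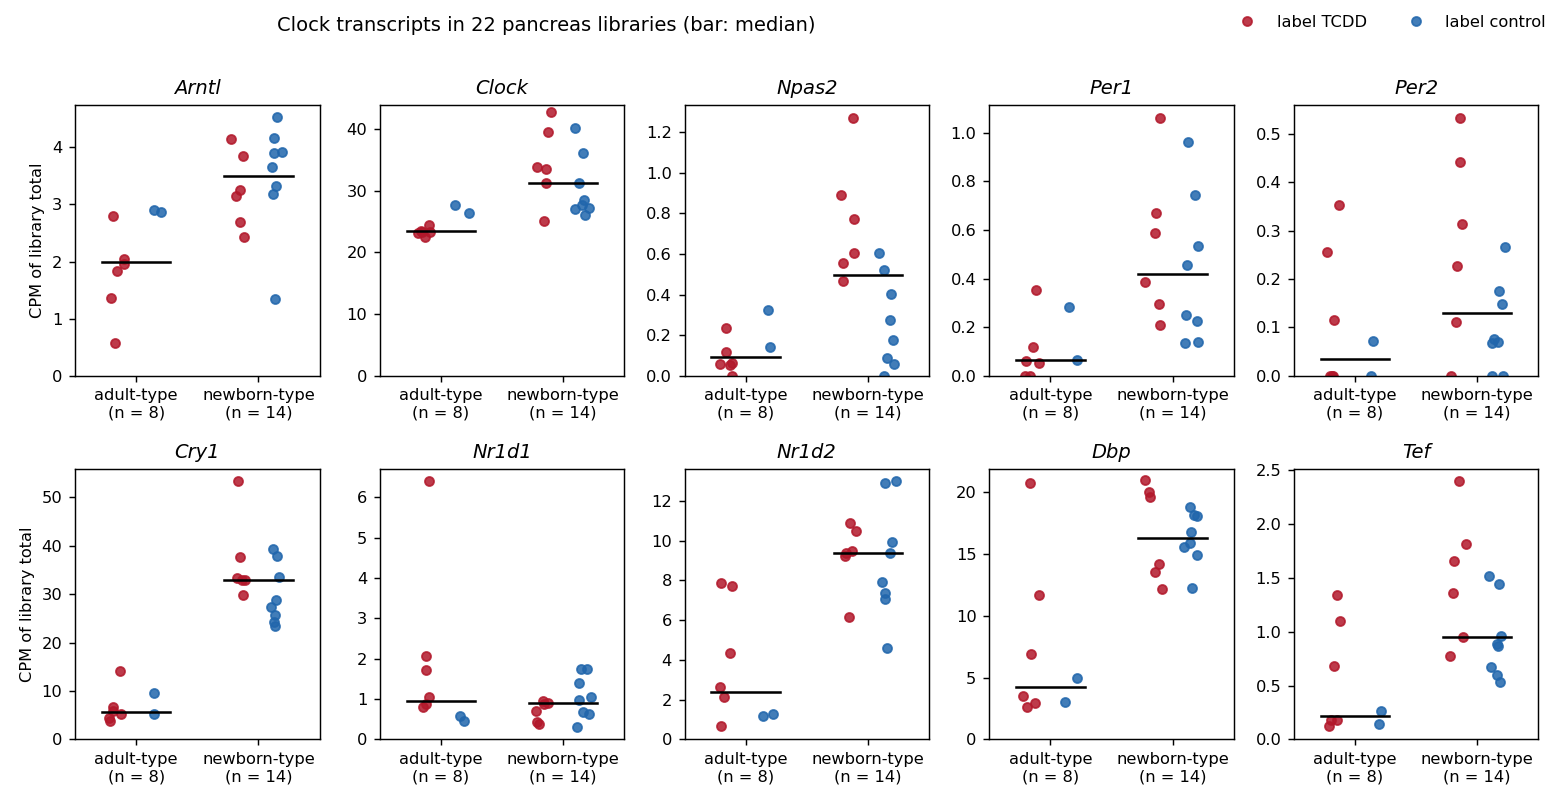
CPM of the 10 clock genes in each library, adult-type left and newborn-type right, with TCDD labels in red left of control labels in blue and a bar at the class median. Nr1d1, Nr1d2 and Dbp spread over 14, 11.2 and 7.81 times in adult-type libraries, over 4.53, 11.2 and 4.39 times without TCDD male pup 10, and Clock over 1.24 times with and without it.

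Differences of level between the classes depended on the scale. The 6 acinar marker genes took 179000 to 191000 CPM of the adult-type libraries and 91000 to 118000 CPM of the newborn-type ones. The median of 11360 genes was 1.97 lower in adult-type libraries on the log2 CPM scale. The median of the 7 clock genes was 1.94 lower. Their 1 member without overlap, Cry1, was lower, where 72.1% of 11679 symbols were lower without overlap and 0.497% higher. With TMM factors over all libraries, which even out the bulk of genes, the median gene differed by -0.06 and the clock genes by 0.10. On that scale Cry1 overlapped, and Clock alone of the 7 stood higher in adult-type libraries without overlap, by 1.60 in log2 of the medians (13.3% of symbols were lower and 10.6% higher without overlap). Nr1d1 and Arntl differed by 2.34 and 1.27 on it, with overlapping ranges.

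The other genes of the clock, 21 of which were measured, comprised 16 with a mean of at least 10 counts. On the CPM scale 12 of the 16 were lower in adult-type libraries without overlap and 0 were higher, beside 72.1% lower and 0.497% higher among all symbols, so their share was near the background. Among the lower ones were Per3, Cry2, Bhlhe40, Csnk1d, Csnk1e, Timeless, Tipin, Btrc, Wee1 and Nampt. With TMM factors 3 were lower and 1 higher, beside 13.3% and 10.6% of all symbols. The 3 lower on that scale were Timeless and Tipin, partners at the replication fork, by -1.81 and -1.60, and Wee1, the inhibitory kinase of mitotic entry, by -1.02. The higher one was Rora, the activator that competes with NR1D proteins at ROREs, by 1.13.

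The spread of a gene within a class was also set against counting noise with a dispersion index, the variance over the Poisson variance, which is 1 for counting noise alone. In adult-type libraries it was 85.5 for Dbp, 35.4 for Nr1d1, 32.1 for Nr1d2 and 30.5 for Cry1, against a median of 3.95 over 11667 symbols. Dbp lay at the 98.3 percentile of those symbols, Nr1d1 at 95.7, Nr1d2 at 95.3 and Cry1 at 95.1. Arntl, Clock and Tef had 6.09, 6.82 and 8.47, at the 69.7, 73.9 and 80.1 percentiles. Without TCDD male pup 10 the index was 21.1 for Dbp, 25.6 for Nr1d2 and 30.2 for Cry1 but 4.3 for Nr1d1, beside a median of 4.05. It was then 3.8 for Arntl, 7.9 for Clock and 7.29 for Tef. In newborn-type libraries the index was 9.22 for Dbp, 4.85 for Nr1d1 and 8.92 for Nr1d2, against a median of 4.89. Of the 4 genes highest in adult-type libraries Cry1 alone stayed high, at 35. Arntl, Clock and Tef had 3.15, 9.88 and 3.59 in newborn-type libraries. Scaled Cry1 had an r of 0.693 with log2 of the library total there, and control dam 4, the deepest library, held 1321 of its counts. The part of depth in its spread was not tested. For the same relative spread the index is larger in genes with more counts.

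Arntl and the Nr1d genes ran in roughly opposite order through the adult-type libraries on the CPM scale. TCDD male pup 10 had the least Arntl (0.576 CPM) and the most Nr1d1 and Dbp (6.4 and 20.8 CPM), with Nr1d2 at 7.74 CPM. Next came TCDD female pup 6, with 1.36 CPM of Arntl, 2.06 of Nr1d1, 7.85 of Nr1d2 and 11.7 of Dbp. At the other end stood TCDD male pup 8 and control dams 5 and 7, with 2.79, 2.86 and 2.91 CPM of Arntl. Those 3 libraries had the lowest Nr1d1, at 0.814, 0.456 and 0.569 CPM, and the lowest Nr1d2, at 0.698, 1.17 and 1.28 CPM. Dbp broke this order, at 2.96, 3.06 and 4.98 CPM in them, with its lowest value of 2.66 CPM in TCDD male pup 11 and 3.55 CPM in TCDD dam 8.

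**Figure D2:**
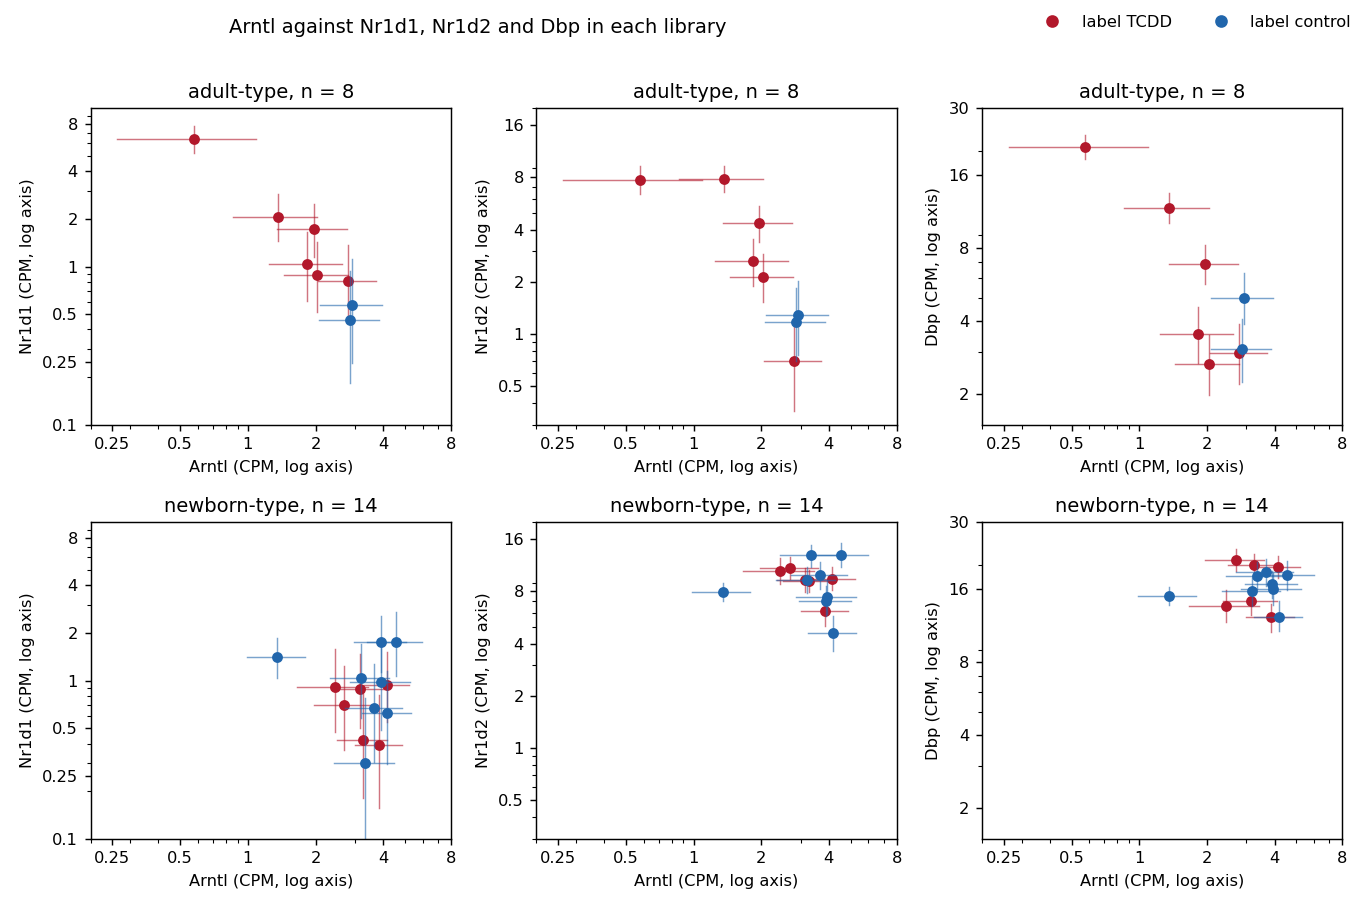
Arntl against Nr1d1, Nr1d2 and Dbp in each library (CPM, log axes, bars are 95% Poisson intervals), adult-type above and newborn-type below, TCDD labels red and control labels blue. Adult-type libraries descend from TCDD male pup 10 at 0.576 CPM of Arntl, and newborn-type libraries form a cloud with control dam 4 alone at 1.35 CPM.

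Correlations used log2 of TMM-scaled CPM plus 0.5, within a class, over 8 adult-type libraries that share treatment and litter labels in part. Arntl had a Pearson r of -0.930 with Dbp (Spearman rho -0.881), of -0.876 with Nr1d1 (rho -0.857) and of -0.867 with Nr1d2 (rho -0.952). Without the 2 libraries farthest from the Arntl median, TCDD male pup 10 and TCDD female pup 6, these were -0.552, -0.615 and -0.794. Leaving out TCDD male pup 10 alone gave -0.811, -0.638 and -0.829, so the relations with Dbp and Nr1d1 rested in part on these libraries. The outputs went together, with r of 0.918 between Nr1d1 and Dbp, 0.850 between Nr1d2 and Dbp and 0.844 between Nr1d1 and Nr1d2. On CPM of the library total r was -0.859, -0.967 and -0.876 for Arntl with Dbp, Nr1d1 and Nr1d2. The order of single libraries differed between the scales. On CPM control dam 7 had the most Arntl and TCDD female pup 6 the most Nr1d2. With TMM factors over all libraries these were control dam 5 and TCDD male pup 10. The correlations took TMM factors within the class instead.

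Cry1 sided with Arntl rather than with the other output genes in adult-type libraries. It had an r of 0.668 with Arntl (rho 0.762), -0.832 with Nr1d2, -0.683 with Dbp and -0.573 with Nr1d1. Leaving out TCDD male pup 10 gave 0.574, -0.785, -0.618 and -0.419. Without TCDD male pup 10 and TCDD female pup 6 its r with Arntl was 0.443. With 1 probe per gene, Cry1 had 0.465 with Arntl and -0.403 with Dbp. These relations thus rested in part on single libraries and on the summed probes. TCDD male pup 8 had the highest Cry1, 14.1 CPM, and TCDD male pup 10 the lowest, 3.84 CPM. Clock, whose range was small, had r of -0.226 to -0.459 with Nr1d1, Nr1d2 and Dbp and 0.567 with Arntl. Tef had r of -0.216 with Arntl, 0.240 with Dbp and 0.485 with Nr1d1, but 0.519, -0.549 and -0.094 without TCDD male pup 10, so its signs rested on that library.

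In the 14 newborn-type libraries Arntl was weakly related to Dbp, Nr1d1 and Nr1d2. Arntl had an r of -0.174 with Dbp (rho -0.288), -0.145 with Nr1d1 (rho -0.046) and -0.412 with Nr1d2 (rho -0.389), and without TCDD male pup 6 and control dam 4, farthest from its median, -0.456, 0.397 and -0.492. Nr1d2 and Dbp kept an r of 0.622 (rho 0.556), and 0.304 without TCDD female pup 11 and control male pup 7. Nr1d1 with Dbp had 0.197 and with Nr1d2 0.134. Arntl and Cry1 stood at -0.424, and at -0.071 without control dam 4. Among genes with a mean of at least 10 counts, Arntl had its most negative r with Tef, -0.506 (rho -0.635). For Tef it was -0.67 without TCDD male pup 6 and control dam 4, and -0.244 on CPM of the library total. Arntl was lower in deeper newborn-type libraries (r -0.676 with the total count, and -0.196 without control dam 4), while that r was 0.092 in adult-type libraries. The part of depth in the newborn-type values was not tested.

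**Figure D3:**
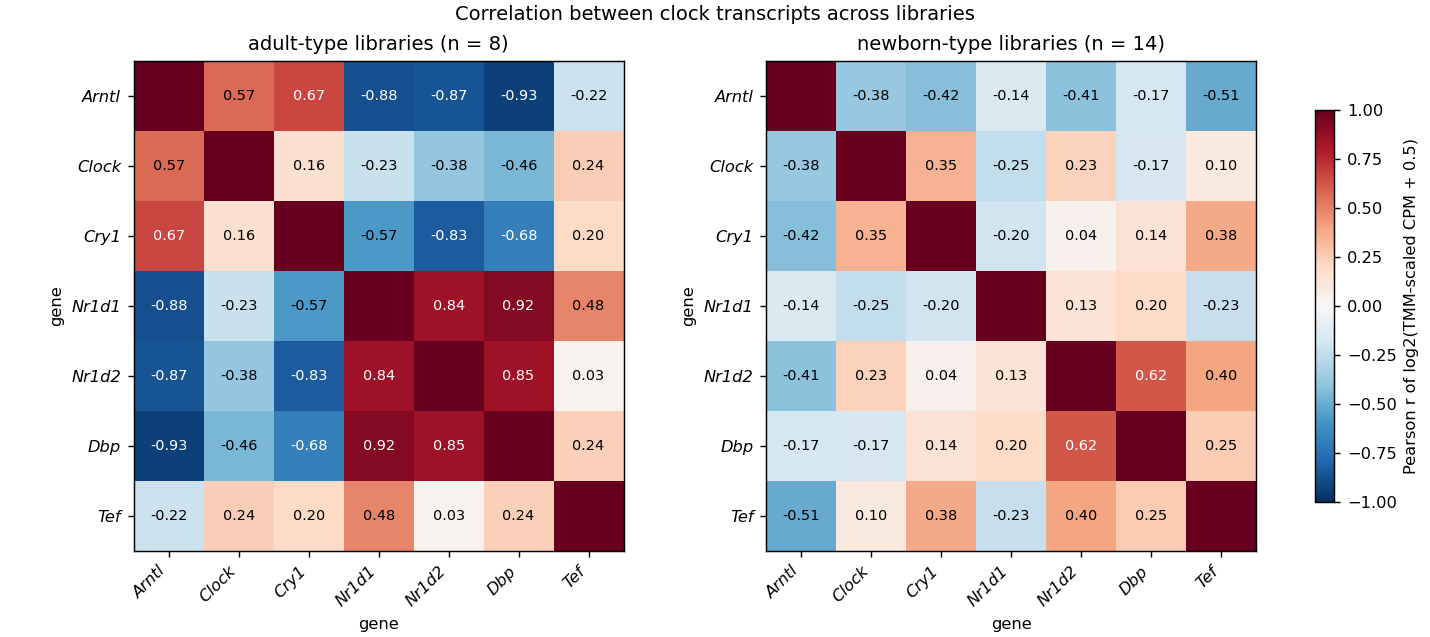
Pearson r between the 7 clock genes with a mean of at least 10 counts, adult-type left and newborn-type right. In adult-type libraries a block of Nr1d1, Nr1d2 and Dbp (0.84 to 0.92) faces Arntl (-0.87 to -0.93), and in newborn-type libraries the largest r is 0.62.

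Counted over the arms, the 3 activators (Arntl, Clock, Npas2) make 21 pairs with the 7 repressor and output genes. Of these, 17 were negative in adult-type and 10 in newborn-type libraries. The difference came with the sparse genes, since of the 10 pairs between genes with a mean of at least 10 counts, 7 were negative in both classes. What differed was size, with a median absolute r of 0.421 in adult-type and 0.241 in newborn-type libraries over those 10 pairs, and 3 pairs below -0.5 against 1. Smaller groups of libraries give larger r by sampling alone, and the difference between classes was not tested.

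Probes of the same transcript gave a check on the measurement. The 3 Dbp probes had r of 0.855 to 0.907 with each other in adult-type libraries, at means of 9.62 to 64.6 counts. In newborn-type libraries they had r of -0.151 to 0.339, though their means of 26.8 to 171 counts were higher. The 2 abundant Cry1 probes went together in both classes, with r of 0.803 in adult-type and 0.931 in newborn-type libraries. Dbp in newborn-type libraries thus varied little beyond what separates its own probes, and Cry1 varied in a way both probes shared.

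Placed among all genes, with 1 probe each, Dbp had the 4th lowest r with Arntl of 9816 genes in adult-type libraries (-0.918), Nr1d1 the 22nd (-0.876) and Nr1d2 the 25th (-0.867). An absolute r over 0.8 was reached by 1.29% of genes. Of the other clock genes, Nfil3, a repressor at the D-box that DBP and TEF occupy, had 0.815, above 99.5% of genes. Csnk1d, a kinase of PER proteins, had -0.790, and Ciart, a transcriptional repressor of the clock, -0.675 (rho -0.357). These were the most extreme, and the rest lay between -0.552 for Bhlhe41 and 0.516 for Csnk1e. Among them Per3 had -0.284, Cry2 -0.237, Wee1 -0.075, Bhlhe40 0.192 and Rora 0.266. Nfil3 lay at 1.34 to 6.04 CPM in adult-type libraries. Klf9, a glucocorticoid-responsive gene, had -0.750, and the other 5 such genes listed, Zbtb16, Ddit4, Fkbp5, Tsc22d3 and Sgk1, had -0.511, -0.154, -0.018, 0.134 and 0.226. In newborn-type libraries Dbp, Nr1d1 and Nr1d2 held ranks 4341, 4018 and 1055 of 12091. The other clock genes ran from -0.494 for Cry2 to 0.483 for Wee1 in that class. Ciart had -0.467, Per3 -0.454, Csnk1d -0.25 and Nfil3 0.333. Sgk1 had an r of -0.806 with Arntl there, at rank 8, and the other 5 glucocorticoid-responsive genes had -0.314 to 0.008. Scaled Sgk1 also had an r of 0.583 with log2 of the library total in that class, and the part of depth was not tested.

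**Figure D4:**
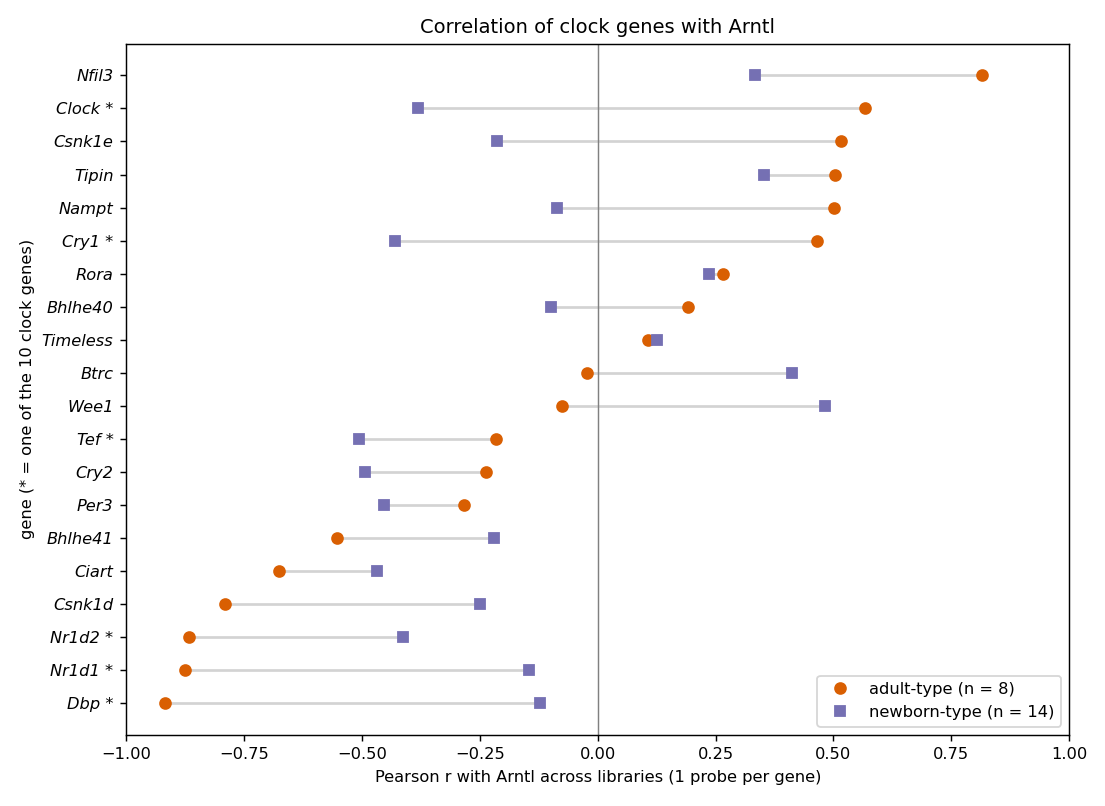
Pearson r of clock genes with Arntl in adult-type (circles) and newborn-type libraries (squares), 1 probe per gene, sorted by the adult-type value. Dbp, Nr1d1 and Nr1d2 stand lowest and Nfil3 highest in adult-type libraries, at -0.918, -0.876, -0.867 and 0.815.

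Genes outside the clock list shared the Arntl pattern too. In adult-type libraries the highest r with Arntl among 9810 genes belonged to Slc12a2 (0.919), Cdkn1a (0.904), mt-Nd1 (0.898), Ptprd (0.896) and Ints3 (0.889), and the lowest to Acot2 (-0.948), Lgals4 (-0.920), Fbxo38 (-0.918), Adat2 (-0.915) and Slc2a8 (-0.911). Slc2a8, a glucose transporter, was also among the 5 highest with Dbp (0.922), beside Gm9046, Nudt16l1, Pdzd8 and Utp20. Dbp had its lowest r with Il1rap (-0.974), Tbc1d22b, Cald1, Abhd6 and Sema3f. Acot2 and Lgals4 averaged 6.0 and 3.75 counts in that class. In newborn-type libraries the highest with Arntl were Paip2 (0.861), Psmd5, Mrgprf, Fkbp9 and Gm43064, and the lowest Scn3b (-0.868), Fbxo9, Doc2b, Rasgef1b and Rac3. With Dbp they were Thap4 (0.828), Bsdc1, Tiprl, Adam22 and Mecom, and Slc7a3 (-0.826), Slc16a9, Ptgis, Mug1 and Rbbp5.

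Markers of cell types were summed in each library and set beside these levels. The 6 acinar genes, markers of the labelled tissue, were present in both classes as given above. In adult-type libraries the sum of the 3 hepatocyte genes (Alb, Ttr, Apoa1), at 3.2 to 15.1 CPM, had an r of 0.80 with Arntl and -0.665 with Dbp. None of the 3 was at 0 in every library of the class, and their part in the clock pattern was not tested. Sums for acinar, islet, duct, lymphocyte, macrophage, adipocyte and smooth muscle genes had r of 0.065 to 0.33 with Arntl there. In whole tissue, fewer cells of a type and less transcript per cell cannot be told apart.

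Treatment labels were compared with edgeR's quasi-likelihood test on all probes, with Benjamini-Hochberg adjustment and a threshold of 0.05. No clock probe passed, in a setting where nothing else did. Among labelled dams, 0.0% of 15594 probes passed (0 of 10 clock probes, and 150 probes at an unadjusted p under 0.05). Among labelled female pups, 0.0% of 17513 passed (0 of 11, and 299). Among labelled male pups, 0.0% of 16176 passed (0 of 10, and 2702). Within newborn-type libraries, 6 TCDD against 8 control, 0.0% of 17109 passed (0 of 10, and 555). Within adult-type libraries, 6 TCDD against 2 control, 0.0% of 13513 passed (0 of 10, and 388). DESeq2 gave 0 in each but the labelled male pups, where 514 probes, or 3.18%, passed and 1 of 10 clock probes did, that of Clock itself.

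In the male pup comparison 3 of the 4 TCDD libraries and 0 of the 3 control libraries were adult-type, so treatment label and class cannot be told apart. Clock had a log2 fold change of 1.38 ± 0.33 (SE) there, Tef one of 2.21 ± 0.54 and Nr1d1 one of 2.73 ± 1.06, with adjusted p of 0.273, 0.273 and 0.279 by edgeR. The direction for Clock held after TMM scaling only, since it averaged 27.9 CPM with TCDD labels and 28.9 CPM with control labels. Without TCDD male pup 6, the one newborn-type TCDD library, 6453 of 15379 probes passed, or 42%, and 3 of 10 clock probes did, those of Nr1d1, Clock and Tef, a share no higher than that background. Of the other clock genes, probes of Tipin, Timeless, Wee1 and Btrc passed as lower and probes of Nfil3 and Rora as higher. Labelled dams had 2 adult-type libraries on each side, and labelled female pups had 1 among TCDD and 0 among control libraries.

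Within adult-type libraries Nr1d1 was the clock output whose TCDD and control labels did not overlap, and it did not pass the test. Nr1d1 averaged 2.15 ± 2.14 CPM with TCDD labels (SD, n = 6) and 0.512 ± 0.0798 CPM with control labels (n = 2), a log2 fold change of 2.169 ± 0.80 (edgeR adjusted p = 1). The TCDD libraries lay at 0.814 to 6.4 CPM and both control dams below them. Nr1d2 had a log2 fold change of 1.85 ± 0.66 (edgeR adjusted p = 1), and its TCDD range of 0.698 to 7.85 CPM enclosed the control values of 1.17 and 1.28 CPM. The most abundant Dbp probe had 1.01 ± 0.59, but summed Dbp in TCDD male pups 11 and 8, at 2.66 and 2.96 CPM, lay below both control dams, at 3.06 and 4.98 CPM. The 2 Cry1 probes had 0.01 and -0.00, and Arntl -0.55 ± 0.46. Without a filter on low counts Nr1d1 and Nr1d2 passed, with adjusted p of 0.0237 and 0.00147 by edgeR, where 112 of 27621 probes, or 0.405%, passed. Without TCDD male pup 10 the log2 fold changes of Nr1d1 and Nr1d2 were 1.45 and 1.57. Arntl and Clock were below both control dams in all 6 TCDD libraries on the CPM scale, at 0.576 to 2.79 against 2.86 to 2.91 CPM for Arntl and 22.4 to 24.4 against 26.3 to 27.6 CPM for Clock. That made 3 of 10 clock probes without overlap on CPM, where 5.08% of probes had none. With TMM factors it was Nr1d1 alone, 1 of 10, where 5.18% had none.

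Within newborn-type libraries no clock probe separated the labels, where 0.216% of probes did on CPM and 0.0643% with TMM factors. Nr1d1 averaged 0.709 ± 0.25 CPM with TCDD labels (SD, n = 6) and 1.06 ± 0.533 CPM with control labels (n = 8), a log2 fold change of -0.77 ± 0.37 (edgeR adjusted p = 1). The sign was opposite to that in adult-type libraries, and the difference between the classes was not tested. Arntl had -0.22 ± 0.19, Clock 0.01 ± 0.11 and Nr1d2 -0.10 ± 0.18. The median absolute log2 fold change of the clock probes was 0.219 there and 1.10 in adult-type libraries, beside 0.103 and 0.224 over all probes tested. These medians are no test, since the genes were chosen with earlier results known. Of the 10 probes 3 were of Dbp, at 1.27, 1.19 and 1.01 in adult-type libraries, and that class had 2 control libraries. Of the other clock genes, Csnk1e and Bhlhe40 probes in newborn-type and Nfil3 and Tipin probes in adult-type libraries had an unadjusted edgeR p under 0.05, and none passed.

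**Figure D5:**
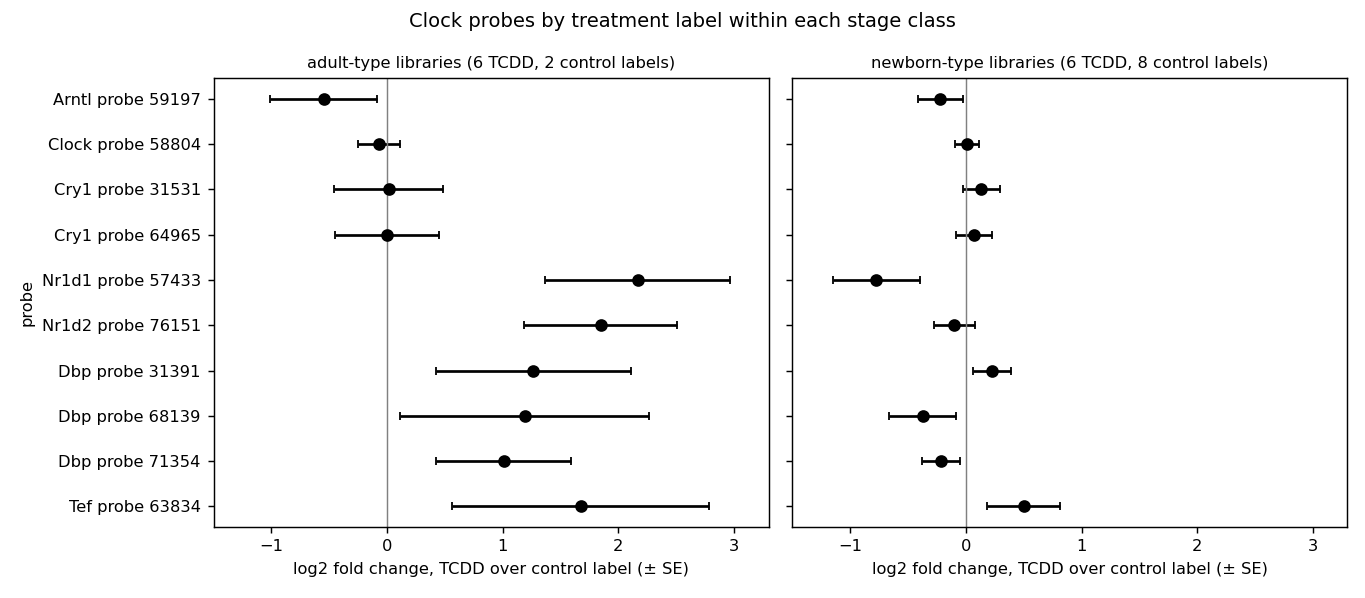
Log2 fold change of TCDD over control labels for the clock probes that passed the low-count filter (points, bars are SE), adult-type libraries left and newborn-type right. Nr1d1 stands at 2.169 in adult-type and -0.77 in newborn-type libraries, and no probe passed the test in either.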

How the data were processed

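TempO-Seq counts of 22 whole-pancreas libraries were used as the authors deposited them. The table holds whole-number counts for each probe and was not normalized, per the file headers and values. The submitters' processing notes name bcl2fastq 2.17.1.14, and no source used here names an aligner or a genome build. Every column belonged to a labelled sample, and 0 columns were left out for lack of one. Probes lie on short stretches of transcripts, so near-identical genes can share signal.

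Counts of the probes of a symbol were summed for levels and correlations, and single probes were tested. The members and lists were chosen with earlier results of these data known. Named genes were all members, and the 5 highest and 5 lowest by r with Arntl and with Dbp. Other clock genes were given by count, and named where classes did not overlap. Some were also named for their r with Arntl or their p in a label comparison, a choice made on those values. Tests used edgeR 4.0.16 under R 4.3.3 (filterByExpr for low counts, TMM factors, the quasi-likelihood test, Benjamini-Hochberg adjustment over all probes tested, threshold 0.05). On simulated counts, called changes had the right sign, and the largest changes put in came back near their size by the median. Those counts had the same dispersion for every probe, no difference of class, and changes in well-counted probes only. They do not show what share of changes in sparse genes the tests would find. DESeq2 1.42.0 and limma 3.58.1 served for alternatives. Some items of the other clock genes are counted but not reported by name here. Correlations used SciPy 1.17.1. Libraries of a group are separate animals per the labels, and the label numbers mark shared litters. Library totals were 11223816 to 34911410 counts, so 3 counts equal 0.0859 to 0.267 CPM.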

Additional observations from a re-analysis of the deposited data

Results flagged for a closer look

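Single libraries stood apart from the rest of their group, by the gap to the nearest library over the group's range in 8 cases. Across the 10 clock genes 50 groups of 4 or 8 libraries were looked at, and chance flags about 1 in 20 groups. Nr1d1 in TCDD male pup 10 stood at 6.4 CPM, against 0.909 CPM in the nearest TCDD male pup and 2.06 CPM in the nearest adult-type library. The same library had the lowest Arntl and the highest Dbp of its class.

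The other 6 cases were the highest values of newborn-type libraries in labelled groups that also held adult-type ones. TCDD male pup 6 had Clock at 42.8 CPM (nearest 23.3), Npas2 at 0.606 CPM (nearest 0.064) and Per1 at 1.06 CPM (nearest 0.0522). TCDD dam 6 had Clock at 33.8 CPM (nearest 25.1) and Per2 at 0.443 CPM, which was 8 counts, with the 3 others at 0. Control dam 2 had Clock at 36.1 CPM (nearest 27.6). Labelled group and class are mixed in these groups, and the class of the library was not tested as a source of the values.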

How the results depend on the processing

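The count of clock probes passing the threshold was 0 in each comparison, and remained 0 except in 3 settings. Among male pups as labelled DESeq2 gave 514 probes and 1 of the clock, and leaving out the libraries whose stage genes go against the label gave 3 probes, with 1 TCDD library against 3 controls, so that the lone library is assumed to vary like the others. Leaving out each library in turn gave 0 to 6453 probes there and 0 to 3 of the clock, the highest without TCDD male pup 6. In adult-type libraries, no low-count filter gave 112 probes and 2 of the clock, and leaving out each library gave 0 to 2 probes. The cause was not tested. With the replicate block (litter as a random effect, consensus correlation 0.0129), newborn-type libraries gave 0 probes. The litters are those of the labels, whose stage and sex entries go against transcripts in some libraries. True litters may therefore not be accounted for. Signs of member fold changes reversed in 7 of 200 newborn-type and 10 of 110 adult-type alternative values, none past the threshold.

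The count of negative pairs between arms was 17 of 21 in adult-type and 10 of 21 in newborn-type libraries. Alternatives gave 13 to 18 and 9 to 12. Per1, Per2 and Npas2 rest on few counts, and adult-type libraries include 2 control labels only.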
